A study of Mus musculus with 6 samples.

Results

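Immunoglobulin transcripts were read in RNA from CD4+ and CD8+ splenocytes that had been purified by flow cytometry. The genes are 9 immunoglobulin constant regions (Ighm, Ighd, Igha, Ighg1, Ighg2b, Ighg2c, Ighg3, Igkc and Iglc2) and Jchain, taken by name from the table, and all 10 of 10 were found among its 17832 genes. Every mouse was of the C57BL/6 strain and was infused with angiotensin II, a hormone that constricts vessels, from an osmotic pump under the skin, so the treatment is common to both groups and its effect cannot be read here. The labels give no dose, duration, age or sort gate beyond the coreceptor. Libraries numbered 385, 393 and 395 form the CD4 group (n = 3), and those numbered 389, 395 and 387 form the CD8 group (n = 3). What these numbers mark is left unsaid, so p-values measure the spread between these libraries only.

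Immunoglobulins are the antibodies of B cells and plasma cells. Each is built from a pair of heavy chains and a pair of light chains, and the constant region of the heavy chain sets the class. A naive B cell makes IgM and IgD from one long transcript, and class switching replaces the IgM constant region by that of an IgG subclass, IgE or IgA. Kappa and lambda are the alternative light chains, and the J chain joins IgM and IgA molecules into polymers. The spleen is a main site of IgM production, and a pure T cell sample would hold few transcripts of rearranged immunoglobulin genes.

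The IgG subclasses are the members whose make-up differed most between libraries, so their sequences are shown first, together with those of the lambda genes. The 4 IgG genes lie next to each other on the minus strand of chromosome 12. All sequences below are from the GENCODE M21 transcripts of the GRCm38 build, which is older than the GRCm39 build named in the submitters' processing notes, so no coordinates are given. The hinge, the flexible link between the arms and the stem of an antibody, is encoded by exon 2 of each gene and is known for differing between the subclasses. In the hinge exons, capitals mark the bases that lie in no 10-base stretch shared with another of the 4 hinges.
Ighg1 hinge: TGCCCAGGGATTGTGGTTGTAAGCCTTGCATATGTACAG
Ighg2b hinge: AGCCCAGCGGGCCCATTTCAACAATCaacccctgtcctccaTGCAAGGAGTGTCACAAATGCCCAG
Ighg2c hinge: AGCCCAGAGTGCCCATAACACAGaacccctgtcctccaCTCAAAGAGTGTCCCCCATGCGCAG
Ighg3 hinge: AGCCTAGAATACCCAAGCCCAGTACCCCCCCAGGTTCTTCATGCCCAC

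The hinge exons are 39, 66, 63 and 48 bases long, and Ighg2b and Ighg2c share a stretch that the other 2 lack. Exon 1, which encodes the first constant domain, is 291 bases long in all 4 genes. Its first 60 bases are given next, with capitals at the 22 positions where the 4 genes are not all the same.
Ighg1 exon 1: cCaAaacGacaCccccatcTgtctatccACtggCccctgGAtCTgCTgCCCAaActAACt
Ighg2b exon 1: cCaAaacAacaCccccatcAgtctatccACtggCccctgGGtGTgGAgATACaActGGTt
Ighg2c exon 1: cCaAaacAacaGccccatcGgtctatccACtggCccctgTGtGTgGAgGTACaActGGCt
Ighg3 exon 1: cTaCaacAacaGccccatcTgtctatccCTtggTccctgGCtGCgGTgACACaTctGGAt

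Over the whole of exon 1, Ighg1, Ighg2b and Ighg2c were 87.6% to 88.3% identical to each other, whereas Ighg3 was 78.4% to 79.0% identical to them. The lambda constant regions lie on chromosome 16. They are shown for 60 bases from a stretch of 9 bases at the start of exon 1 that all 3 genes have, with capitals at the 14 positions where they are not all the same.
Iglc1: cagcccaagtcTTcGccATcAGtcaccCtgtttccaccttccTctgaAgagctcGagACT
Iglc2: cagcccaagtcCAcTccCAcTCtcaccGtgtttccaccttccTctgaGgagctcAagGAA
Iglc3: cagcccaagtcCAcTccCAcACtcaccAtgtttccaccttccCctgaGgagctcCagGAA

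Reads that come from a stretch shared by several genes can be split or lost in counting. No window of 100 bases was shared by any of the 10 genes, Iglc1 and Iglc3. Of all windows of 50 bases, 4.15% of those of Ighg2b, 5.49% of those of Ighg2c, 1.58% of those of Ighg3 and 0.393% of those of Ighg1 were also found in another gene of this set. The same held for 7.65% of those of Iglc2 and 10.7% of those of Iglc3. The labels state neither the read length nor the treatment of reads with several positions, and genes outside this set were not compared. The values of Iglc2, Iglc3, Ighg2b and Ighg2c are thus uncertain to an extent that these shares do not give.

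The libraries held 10264246 to 14628599 reads, and the 10 genes took 1.16% to 1.98% of them. Values are normalised read counts, that is, reads divided by the size factor of each library. The coreceptor transcripts followed the labels, with Cd4 at 4065 to 6313 in the CD4 and 38.9 to 163 in the CD8 libraries, and Cd8a at 7.45 to 36.8 and 3871 to 10001. The libraries were not of T cells alone. The summed values of 10 T cell markers ranged from 9920 in CD8 389 to 42718 in CD4 393, those of 10 macrophage and monocyte markers from 4494 to 27455, those of 8 neutrophil markers from 428 to 11081 and those of 11 erythroid markers from 36957 to 111366. B cell markers (14 genes) summed to 2734 to 4047 and plasma cell markers (11 genes) to 3929 to 5745, and no marker of either list was at 0 in any library. Dendritic cell markers (6 genes) summed to 157 to 925 in the CD4 and 2508 to 3154 in the CD8 libraries, with no overlap. In such bulk libraries, fewer cells of a type and less RNA per cell cannot be told apart.

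**Figure D1:**
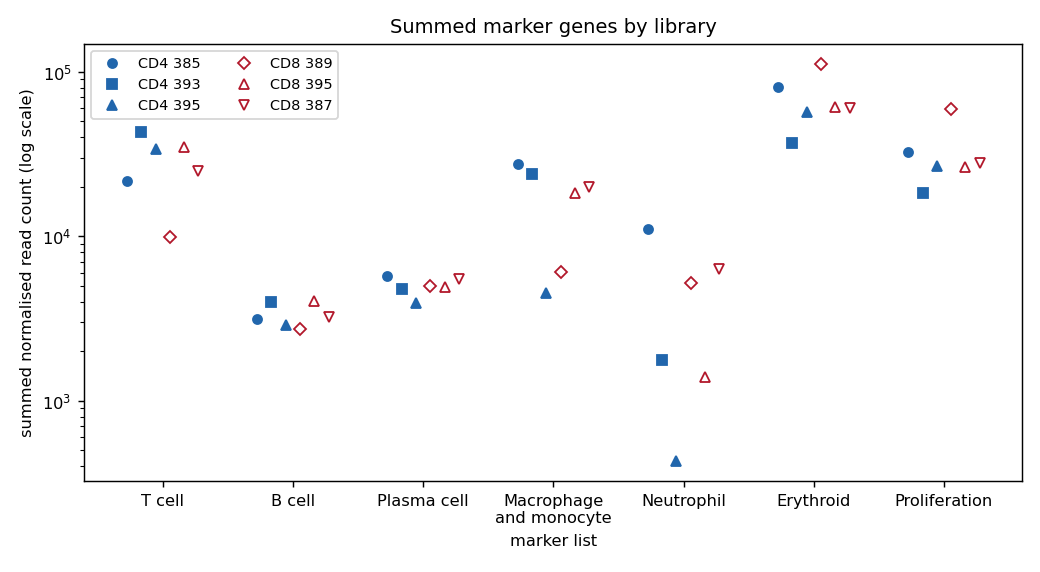
Summed normalised read counts (log scale) of the marker genes of 7 lists, 1 point per library, with filled blue symbols for CD4, open red symbols for CD8 and triangles pointing up for number 395. The neutrophil sums lie between 5207 and 11081 in CD4 385, CD8 389 and CD8 387 and between 428 and 1778 in the other 3 libraries, while the B cell and plasma cell sums spread little.

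IgM was the class with the most transcripts in every library. Ighm, the IgM heavy chain, had 104870, 94040 and 78794 normalised reads in CD4 385, 393 and 395, and 62053, 117988 and 109361 in CD8 389, 395 and 387. Both the lowest and the highest value were in CD8 libraries, and the ranges of the groups overlapped. Ighd, the IgD heavy chain, which naive B cells splice from the same primary transcript as Ighm, was the lowest member, with 160, 320 and 199 in the CD4 and 139, 379 and 213 in the CD8 libraries. Per kilobase of annotated exon, Ighm averaged 50115 and Ighd 124 over the 6 libraries.

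The J chain spread least. Jchain had 12312, 10488 and 10354 in CD4 385, 393 and 395 and 8147, 13323 and 12038 in CD8 389, 395 and 387. CD8 389 was thus lowest for Jchain as it was for Ighm, and the highest value of each was in CD8 395. Across libraries Jchain ranged 1.64-fold and Ighm 1.90-fold, while 61.4% and 48.1% of the 13877 genes tested ranged at least as widely, so neither was unusually variable. Jchain amounted to 9.79% to 11.8% of the summed IgM and IgA reads, a ratio that stayed within a narrow band in all 6 libraries.

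IgA, the class that is carried across mucosal surfaces, had intermediate levels. Igha had 16591, 10879 and 9201 in CD4 385, 393 and 395, and 7786, 18104 and 9512 in CD8 389, 395 and 387. CD4 385 and CD8 395 stood above the other 4 libraries, and the range was 2.33-fold.

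Ighg1, Ighg2b and Ighg2c ranged more widely between libraries than any other member. Ighg1, a subclass that in mice is typical of responses with T cell help, had 6985, 614 and 243 in CD4 385, 393 and 395 and 10247, 416 and 5606 in CD8 389, 395 and 387. CD4 385, CD8 389 and CD8 387 were high and the other 3 libraries low, so that each group held both kinds. Its range was 42.2-fold, and 0.540% of the genes tested ranged at least as widely.

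Ighg2b had 17610, 2650 and 1657 in the CD4 and 12189, 2844 and 9327 in the CD8 libraries. Ighg2c encodes an IgG2 subclass of the C57BL/6 strain that is favoured by interferon gamma. It had 9340, 2416 and 731 in the CD4 and 9280, 1386 and 4794 in the CD8 libraries. Both were high in the same 3 libraries as Ighg1, and their ranges were 10.6-fold and 12.8-fold.

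Ighg3, a subclass known in mice for responses to polysaccharides, ran the other way. It had 1608, 3655 and 1933 in the CD4 and 958, 3455 and 1276 in the CD8 libraries. The 3 libraries highest for Ighg1 were the 3 lowest for Ighg3, which ranged 3.82-fold. IgE was at the edge of detection: Ighe had 0 to 35.2 normalised reads, with 0 in CD4 395, where a count of 0 allows up to 3 reads or a value of 3.19.

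**Figure D2:**
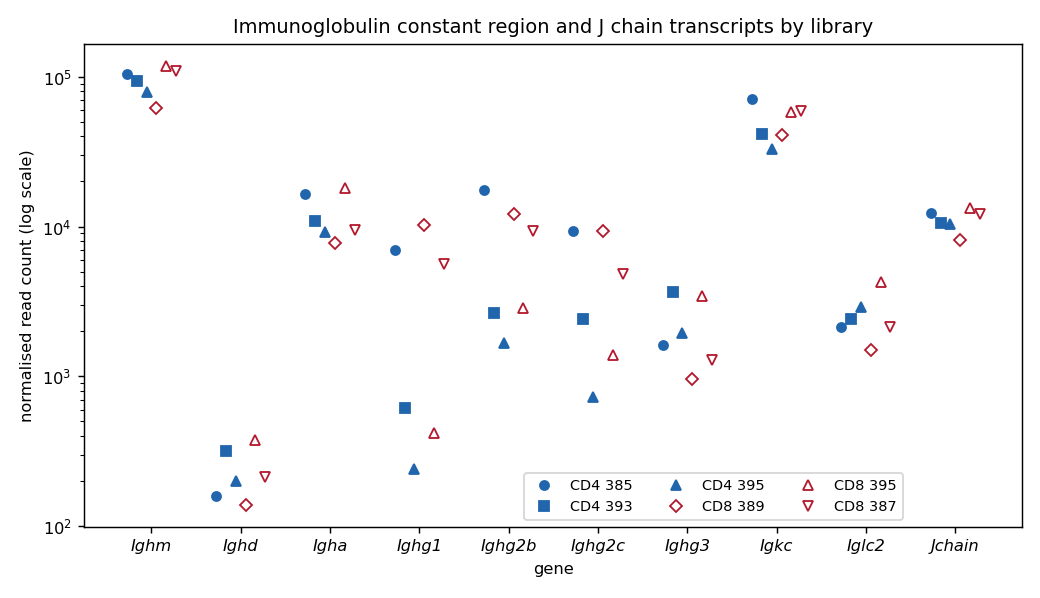
Normalised read counts (log scale) of the 10 genes in each library, with filled blue symbols for CD4 and open red symbols for CD8. Ighg1 spreads from 243 to 10247, with members of both groups at each end, whereas Jchain stays between 8147 and 13323.

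Expressed as shares of the 7 heavy chain genes, which do not depend on how libraries are scaled, IgM made up 66.7%, 82.1% and 84.9% of the heavy chain reads in CD4 385, 393 and 395, and 60.5%, 81.6% and 78.1% in CD8 389, 395 and 387. The 4 IgG genes together made up 22.6%, 8.15% and 4.92% in the CD4 and 31.8%, 5.60% and 15.0% in the CD8 libraries. The share of IgG was thus 15.0% or more in CD4 385, CD8 389 and CD8 387 and 8.15% or less in the other 3 libraries. The exact (Clopper-Pearson) 95% intervals of these shares reached at most 0.288 percentage points to either side for IgM and 0.275 for IgG, and they cover counting error only. IgA held 10.6%, 9.50% and 9.92% in the CD4 and 7.58%, 12.5% and 6.79% in the CD8 libraries, and IgD 0.102% to 0.279% over all 6.

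Shares of reads favour long transcripts. When each gene was divided by its annotated exon length, IgM held 63.5% to 88.2% of the heavy chain total, IgG 4.29% to 30.7% and IgA 4.99% to 9.27%. CD8 389 was again lowest for IgM and highest for IgG, and CD4 395 the reverse.

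**Figure D3:**
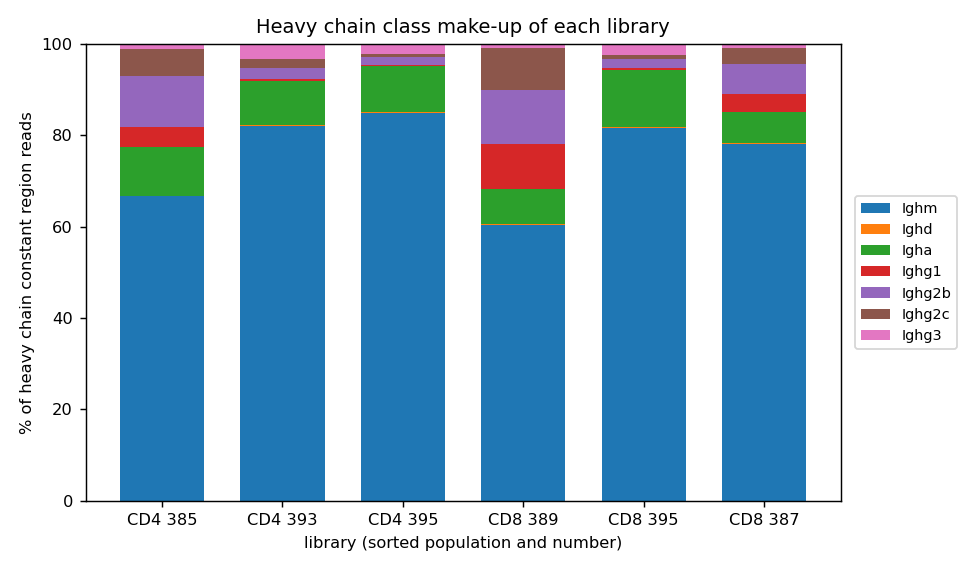
Share of each heavy chain gene in the reads of all 7 heavy chain genes (percent), 1 bar per library, with no error bars because the 95% counting intervals are below 0.3 percentage points to either side. IgM fills 60.5% to 84.9% of each bar, and the IgG part is largest in CD8 389 and smallest in CD4 395.

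Within IgG, Ighg3 and Ighg1 separated the libraries. Ighg3 held 4.52%, 39.2% and 42.4% of the IgG reads in CD4 385, 393 and 395, and 2.93%, 42.6% and 6.08% in CD8 389, 395 and 387. Ighg1 held 19.7%, 6.58% and 5.32% in the CD4 and 31.4%, 5.14% and 26.7% in the CD8 libraries. In CD4 393, CD4 395 and CD8 395, Ighg3 was the most counted IgG gene, and in the other 3 libraries it was the least. Ighg2b held 37.3% to 49.5% in the 3 libraries with high Ighg1 and 28.4% to 36.3% in the other 3. The Ighg2c shares, 16.0% to 28.4%, overlapped between these libraries. Per exon length the IgG gene with the highest value was Ighg2c in CD4 385, CD4 393, CD8 389 and CD8 387, and Ighg3 in CD4 395 and CD8 395. The annotated exon length was 1326 bases for Ighg2c, against 2678 for Ighg2b, 2592 for Ighg1 and 2512 for Ighg3. The rank of Ighg2c thus rests on its shorter annotation, and by reads it was the most counted IgG gene in no library.

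**Figure D4:**
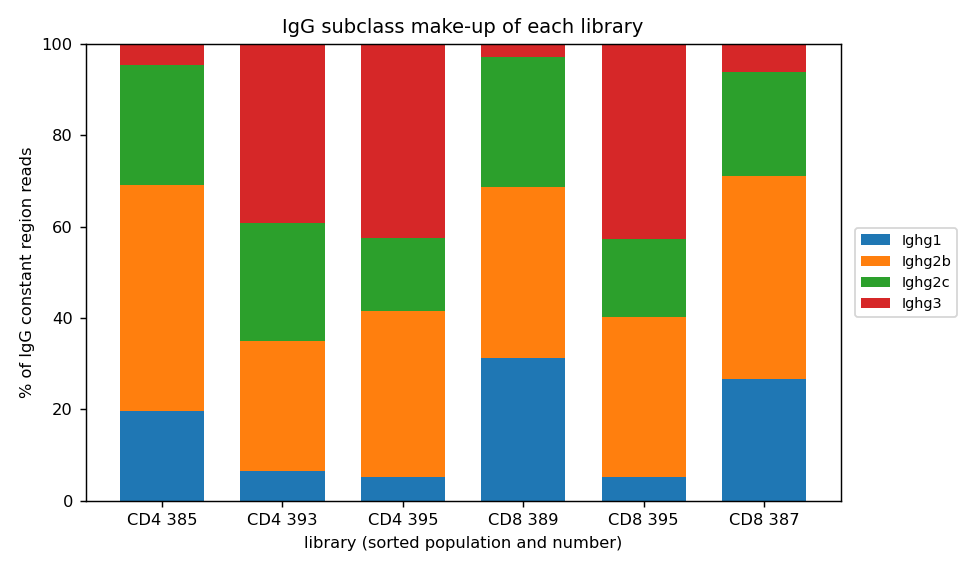
Share of each IgG gene in the reads of the 4 IgG genes (percent), 1 bar per library. Ighg3 fills 39.2% to 42.6% of the bars of CD4 393, CD4 395 and CD8 395 and 2.93% to 6.08% of the bars of the other 3 libraries.

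Some other transcripts separated the libraries in the same way, along a split that was taken from the Ighg1 values. The share of all genes that part along this split was not counted. The 3 libraries with high Ighg1 had neutrophil sums of 11081 (CD4 385), 5207 (CD8 389) and 6306 (CD8 387), against 1778, 428 and 1399 in CD4 393, CD4 395 and CD8 395. Mpo, the gene of myeloperoxidase in granule precursors, is among the neutrophil markers summed. It had 5307, 3954 and 3283 in the former and 1078, 352 and 908 in the latter libraries. T cell sums were 21583, 9920 and 24710 against 42718, 33882 and 34858, and plasma cell sums were 5745, 4998 and 5504 against 4744, 3929 and 4903. The plasma cell sums barely parted, and no gene of that list was by itself higher in all 3 libraries with high Ighg1. CD8 389 had the highest Ell2 (1436) of the 6 libraries but the lowest Prdm1 (108), Irf4 (358) and Pou2af1 (438). B cell sums were 3144, 2734 and 3247 against 3979, 2887 and 4047, which overlap, as did the macrophage and the erythroid sums. Proliferation sums were 32449, 58979 and 27678 against 18290, 26827 and 26452. The part of these differences in the IgG values was not tested.

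The 2 libraries numbered 395 could be set side by side, 1 of each sorted population. All 10 genes had higher values in CD8 395 than in CD4 395, with ratios from 1.29 for Jchain to 1.97 for Igha. The share of all genes that were higher in CD8 395 was not counted. From CD4 395 to CD8 395 the T cell sums were 33882 and 34858, the B cell sums 2887 and 4047 and the plasma cell sums 3929 and 4903. The macrophage and monocyte sums were 4494 and 18272 and the neutrophil sums 428 and 1399. The dendritic cell sums, which parted the groups as a whole, were 157 and 3154. The part of these differences in the values of the 10 genes was not tested. The IgG subclass shares of the pair differed by 1.38 percentage points, taken as the summed absolute difference divided by 2, which was the lowest of all 15 pairs of libraries, where the highest was 39.7. For the 7 heavy chain shares the pair differed by 3.33 percentage points and ranked 3 of 15, behind CD4 393 with CD8 395 (3.03) and CD4 393 with CD4 395 (3.29). Whether the shared number means a shared animal is unstated.

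Kappa was the main light chain. Igkc, the only kappa constant region, had 70511, 41741 and 33149 normalised reads in the CD4 and 40984, 57832 and 58743 in the CD8 libraries. Iglc2, a lambda constant region, had 2127, 2398 and 2908 in the CD4 and 1495, 4248 and 2151 in the CD8 libraries. The groups overlapped for both genes, and the highest Igkc was in CD4 385 whereas the highest Iglc2 was in CD8 395. Per kilobase of exon, Igkc averaged 94912 and Iglc2 4174.

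Iglc2 made up 2.93%, 5.43% and 8.07% of the reads of Igkc and Iglc2 in CD4 385, 393 and 395, and 3.52%, 6.84% and 3.53% in CD8 389, 395 and 387. With Iglc1 and Iglc3 counted too, the lambda share was 6.89%, 12.7% and 15.6% in the CD4 and 8.50%, 14.3% and 8.88% in the CD8 libraries. The 3 libraries with the higher lambda shares were those with the higher Ighg3 shares of IgG. Light chain reads (Igkc and Iglc2) amounted to 38.5% to 46.2% of the heavy chain reads. Summed values of 102 kappa variable segments amounted to 52.6% of the Igkc value in CD8 395 and 66.0% to 72.1% in the other 5 libraries, and those of 102 heavy chain variable segments to 13.3% to 24.6% of the heavy chain constant regions.

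The design compares the CD8 with the CD4 libraries. None of the 10 genes was called different: 0 of 10 passed an adjusted p of 0.05 in the limma fit over the whole table, where 0.490% of the 13877 genes tested did, 0.281% as higher and 0.209% as lower in CD8. No member had an unadjusted p under 0.05, and edgeR and DESeq2 on the recovered reads also called 0 of 10. All 10 passed the filter on low values. Their median log2 fold change, CD8 minus CD4, was 0.030 beside 0.039 for all genes tested. The ranges of the groups overlapped for all 10 members, while 10.2% of the genes tested had ranges that did not.

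The size of a difference that these libraries leave possible varied with the gene. For Jchain the log2 fold change was -0.011 (SE 0.23) with a 95% interval from -0.55 to 0.53, and for Ighm it was 0.014 (SE 0.38) with an interval from -0.87 to 0.90. Mean values were 11051 ± 1093 (SD, n = 3) in CD4 and 11169 ± 2695 in CD8 for Jchain, and 92568 ± 13100 and 96467 ± 30114 for Ighm. For Ighg1 the log2 fold change was 1.51 (SE 1.48), with an interval from -1.94 to 4.95 and means of 2614 ± 3790 in CD4 and 5423 ± 4918 in CD8. The interval of Ighg1 thus holds large differences in either direction. Ighg2b and Ighg2c had log2 fold changes of 0.69 (SE 0.90) and 0.63 (SE 0.98), Ighg3 -0.48 (SE 0.50), Igha -0.10 (SE 0.36), Ighd 0.046 (SE 0.41), Igkc 0.17 (SE 0.36) and Iglc2 -0.040 (SE 0.36). The limma adjusted p of the 10 genes was 0.946 or higher. Rescaling each library to its T cell marker sum moved the median of all genes to 0.66, and the members' median to 0.65 with all 10 estimates above 0 and none called.

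**Figure D5:**
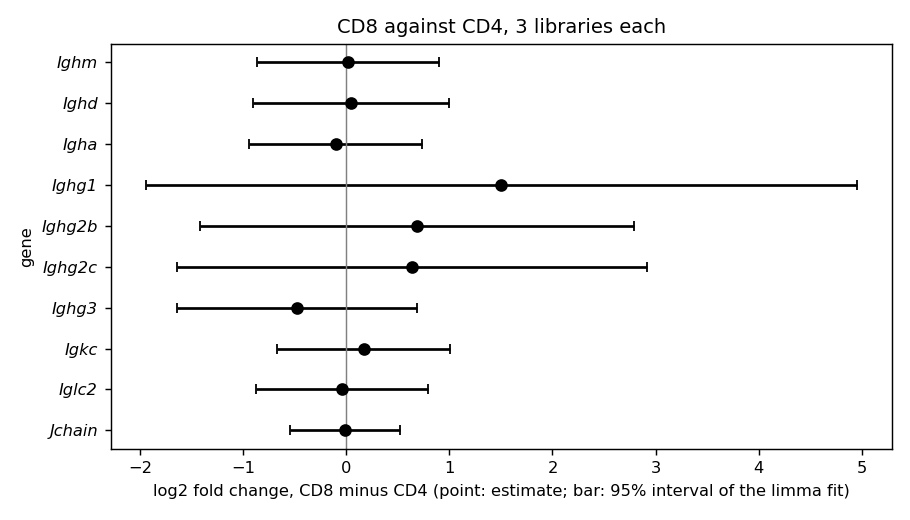
Log2 fold change of each gene, CD8 minus CD4, from the limma fit (points) with its 95% interval (bars), 3 libraries per group. Every interval includes 0, and that of Ighg1 runs from -1.94 to 4.95 while that of Jchain runs from -0.55 to 0.53.

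No share or ratio passed a test of CD8 against CD4. Over the 17 shares and ratios tested, the exact two-sided permutation p lay between 0.4 and 1 and the adjusted p between 0.915 and 1; with 3 against 3 libraries the lowest p possible is 0.1. IgM held 77.9% ± 9.80 (SD, n = 3) of the heavy chain reads in CD4 and 73.4% ± 11.3 in CD8 (exact p = 0.5). IgG held 11.9% ± 9.42 and 17.5% ± 13.3 (exact p = 0.6), and without CD8 389 the difference of 5.58 percentage points became -1.60. The lambda share was 5.48% ± 2.57 and 4.63% ± 1.91 (exact p = 0.7). The log2 ratio of Jchain to IgM plus IgA was -3.24 ± 0.13 and -3.25 ± 0.13 (exact p = 0.7).

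The genes that work with immunoglobulin were read next to it. Cd79a and Cd79b, the chains through which surface immunoglobulin signals, had 294 to 366 and 289 to 479 normalised reads in the CD4 libraries and 186 to 372 and 181 to 536 in the CD8 libraries. Their sum was 0.559% to 0.898% of the Ighm value (log2 ratio -7.09 ± 0.31 in CD4 and -7.30 ± 0.25 in CD8, exact p = 0.5). In the list of B cell receptor partners and B cell identity genes, 0 of 14 tested were called, with a median log2 fold change of -0.30. Cd72, an inhibitory receptor of B cells, had 271 ± 84.8 in CD4 and 411 ± 198 in CD8, and Btk, a kinase that myeloid cells also use, had 764 ± 184 and 996 ± 245.

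Among 11 regulators and receptors of plasma cells, 0 were called, with a median of -0.17. Xbp1, the transcription factor of the secretory programme, had 1493 ± 303 in CD4 and 1586 ± 88.0 in CD8. Ell2, an elongation factor that favours the secreted form of the heavy chain, had 783 ± 251 and 982 ± 393, and Pou2f2, an octamer-binding factor, 959 ± 355 and 559 ± 231. DESeq2 called 1 gene of this list, Slamf7, a surface receptor of plasma cells and cytotoxic cells, with a limma log2 fold change of 1.06 (SE 0.26, limma adjusted p = 0.227).

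In the list of antibody folding and secretion genes, 0 of 21 were called, with a median of 0.16. The chaperones Hspa5 and Hsp90b1 had 7352 ± 1394 and 6338 ± 1437 in CD4 and 7025 ± 873 and 7121 ± 562 in CD8, and Txndc5, a disulphide isomerase, 2466 ± 159 and 2781 ± 286. Of the class switching genes, 0 of 11 tested were called, with a median of 0.15. Msh6 and Rif1, which serve DNA repair in dividing cells in general, had 1943 ± 494 and 1868 ± 152 in CD4 and 2120 ± 536 and 2171 ± 795 in CD8.

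Among receptors and binders of immunoglobulin, 0 of 13 tested were called, with a median of -0.0083. Cd5l, a macrophage protein that circulates bound to IgM, ranged from 297 in CD4 395 and 464 in CD8 389 to between 1305 and 1750 in the others, and Fcer1g, the signalling chain of Fc receptors, from 200 in CD4 395 and 274 in CD8 389 to between 635 and 1003. The macrophage sums were lowest in the same pair of libraries, at 4494 and 6084, and Cd5l is among the markers summed. Trim21, a cytosolic antibody receptor, had 652 ± 62.4 in CD4 and 566 ± 131 in CD8. Of the other immunoglobulin genes, 0 of 3 tested were called. Iglc1 had 2176 ± 341 and 2564 ± 940 and Iglc3 1164 ± 225 and 1205 ± 707. The precursor light chain gene Vpreb1 had at most 4.20.

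How closely the members followed each other was described by the SD over the 6 libraries of the log2 ratio of 2 genes, which is low where the ratio is steady. Ighm and Jchain had an SD of 0.12, and 0.0735% of 10885 other genes averaging at least 50 normalised reads were as close to Ighm. Ighg2b and Ighg2c had an SD of 0.41, with 0.0184% of the other genes as close to Ighg2b. Ighg1 was closest to Ighg2c among the members (0.99), and farthest from Ighg3 (3.01). Ighg3 was closest to Ighd (0.36) and to Iglc2 (0.50), and Igkc was closest to Ighm and Jchain (0.29 each). Many other genes were as close: 6.26% to Ighd as Ighg3 was, 5.18% to Ighg3 as Iglc2 was and 9.12% to Ighm as Igkc was. For Igkc, 1.58% were as close as Jchain. Ighm and Ighd had an SD of 0.44, with 44.9% of the other genes as close to Ighm. All ratios share the same 6 libraries.

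Outside the family, the genes with the steadiest ratio to Ighm were Vim (vimentin, SD 0.064), Cxcr4 (the receptor of the chemokine CXCL12, 0.070), Fam234a (0.079), Wfs1 (0.089) and Slc39a1 (0.089). For Jchain they were Commd7 (0.065), Slc39a1 (0.074), Gpank1 (0.078), Pnpla2 (0.078) and Trp53rka (0.088). For Igkc they were Ctsd (the lysosomal protease cathepsin D, 0.12), Mxd1 (0.15), Cpq (0.15), Fndc3b (0.16) and Plekhb2 (0.17). For Igha they were Gm14165 (0.22), Trim47 (0.23), Zcchc24 (0.23), Chst1 (0.24) and Oasl2 (0.27).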

How the data were processed

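The members and gene lists were chosen with earlier results of these data known. Trizol RNA (500 ng per sample) was made into stranded poly(A) libraries, per the labels' protocols. The deposited values are a signal, namely gene read counts that the authors had divided by a size factor of each library. The submitters' processing notes name STAR (2.7.5c), featureCounts (2.0), DESeq2 and GRCm39 without roles, and give no annotation, strand setting or treatment of multi-mapped reads. Because all deposited signal values (100%) were multiples of a per-library unit within 0.001 reads, the reads themselves could be recovered. Chi-square per degree of freedom between libraries was at least 25.4, above sampling noise for every pair.

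The CD8 and CD4 groups were compared with limma 3.58.1 (R 4.3.3, trended variance, two-sided) on log2(value + 1), which understates changes of low genes. Genes needed a value of at least 10 in 3 libraries, which 13877 had. Benjamini-Hochberg adjustment ran over all of them, and a gene was called under 0.05. The fit was tested on simulated data. Shares and ratios were compared by exact two-sided permutation (scipy 1.17.1), adjusted over 17. The fold range of the genes tested was taken on value + 1. Alternatives were pseudocounts 0.5 and 10, no filter, edgeR 4.0.16 and DESeq2 1.42.0 on recovered reads, TMM scaling, rescaling to T cell markers, other definitions of the shares and leaving out each library. The genes named are the 10 members, Cd4, Cd8a and Cd8b1, the 3 most abundant genes and up to 3 called ones per list, and for Ighm, Igkc, Igha and Jchain the 5 genes with the steadiest ratio. Some of these are not reported here. Mpo, Vpreb1, Slamf7, Cd79a, Prdm1, Irf4 and Pou2af1 were named after their values were seen.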

Additional observations from a re-analysis of the deposited data

How the results depend on the processing

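No member was called under any of the alternatives run, with adjusted p of 0.595 or higher. No paired analysis was possible because the groups share 1 number only. The counts of all genes called higher and lower in CD8 were 39 and 29 and became 64 higher with a pseudocount of 10, 62 higher without a filter, 161 and 158 with DESeq2, 92 and 18 after rescaling to the T cell list, and 3 to 40 and 4 to 17 when 1 library was left out. DESeq2 called 1 plasma cell regulator and limma 0. Signs changed, with no call, for Iglc2 and Jchain with edgeR (0.077 and 0.0053) and DESeq2 (0.083 and 0.010), and for Igha, Ighg3, Iglc2 and Jchain after rescaling to the T cell list (0.52, 0.15, 0.58 and 0.61). Ighg2b had 0.16 with edgeR and 0.15 with DESeq2, and Ighg2c 0.31 and 0.30. Leaving out each library gave log2 fold changes of -0.16 to 0.31 for Ighm, -0.33 to 0.39 for Ighd, -0.46 to 0.15 for Igha, 0.48 to 2.90 for Ighg1 (1.51 with all), 0.0067 to 1.71 for Ighg2b (0.69 with all), -0.27 to 1.57 for Ighg2c, -1.02 to -0.098 for Ighg3 (-0.48 with all), -0.066 to 0.48 for Igkc, -0.45 to 0.30 for Iglc2 and -0.15 to 0.20 for Jchain. It gave differences in share, in percentage points, of -10.1 to 1.92 for IgM, -0.0637 to 0.0249 for IgD, -2.80 to 0.0631 for IgA, -0.789 to 4.78 for Ighg2b, -0.756 to 3.28 for Ighg2c, -1.60 to 11.5 for IgG, -1.93 to 10.2 for IgG with IgA, -3.98 to 6.59 for Ighg2b within IgG, -3.30 to 2.89 for Ighg2c within IgG and -2.12 to 0.450 for lambda, and -0.091 to 0.060 for the log2 Jchain ratio. The cause was not tested. With 3 libraries a group, the spread between libraries and not the depth limits these comparisons.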
